A study of Mus musculus with 4 samples.

Results

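The T, natural killer (NK) and B lymphocyte genes are 33 genes that mark or operate the 3 main lymphocyte classes, with 12 genes of T cells, 12 of NK cells and 9 of B cells among 37074 gene names on the array. Each member was found by its gene name in the scanner files, and all of its probes were read on all 4 arrays. The arrays hold total RNA of hearts from female C57BL/6J mice, labelled as 6 weeks old, with a single array for each of 4 conditions. In the NAC + CY condition, mice received N-acetyl cysteine (NAC, 200 mg/kg), an antioxidant and glutathione precursor, before cyclophosphamide (CY, 400 mg/kg), an alkylating drug that kills dividing cells and lymphocytes. The CY condition had CY at 400 mg/kg alone, the acrolein condition had acrolein, a reactive aldehyde that the body forms from CY, at 5 mg/kg, and the control condition had normal saline (NS). All injections were intraperitoneal, once a day for 2 days, and the labels place the collection of hearts 3 hours after the second dose. The sources do not say how many hearts each array holds, and the series text speaks of 3 independent studies, while 1 array per condition was analysed here. There is therefore no replicate check, no standard deviation and no p-value for any difference between conditions.

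T cells read antigen through the T cell receptor, whose signal leaves the membrane through the CD3 and zeta chains and is passed on by the kinases Lck and Zap70. B cells use the antibody molecule as receptor, with Cd79a and Cd79b as its signalling pair. NK cells kill without an antigen-specific receptor, through activating and inhibitory lectin-like receptors and granules of perforin and granzymes. The healthy heart holds few resident lymphocytes, and lymphocytes of the blood in its vessels are also part of whole heart tissue.

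Values are normalized signals, in linear fluorescence units brought to a common distribution over the 4 arrays, and a probe with a P flag was detected, that is positive, well above background, unsaturated and free of outlier flags. The detection limit is low in absolute terms: the lowest signal well above background was 12.5 on the NAC + CY array, 12.8 on the CY array, 12.6 on the acrolein array and 16.5 on the NS array. Of all probes, 49.9% were well above background on the NAC + CY array, 49.6% on the CY array, 50.02% on the acrolein array and 47.1% on the NS array. The SD of repeated spots of a probe within an array was 0.0573 to 0.0783 on the log2 scale, but each member's probe has a single spot. Ptprc, which encodes the pan-leukocyte protein CD45, had 368 on the NAC + CY array, 353 on the CY array, 375 on the acrolein array and 371 on the NS array, so its probe differed little among them. Myh6, the cardiac myosin heavy chain, was at 260448 with NAC + CY, 250596 with CY, 271995 with acrolein and 271995 with NS, high on all of them. The log2 ratios to NS of the control genes Actb and Gapdh were −0.33 and 0.06 with NAC + CY, 0.02 and 0.05 with CY, and 0.00 and −0.03 with acrolein.

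A gene was called higher when its ratio was 1.5 or more and its intensity-based Z-score 2 or more, and lower when its ratio was 0.66 or less and its Z-score −2 or less, which are the criteria of the study's methods. The Z-score sets a probe's log2 ratio against the spread of the 200 probes nearest to it in mean signal. It compares a pair of arrays, not replicated conditions. The median SD of these windows was 0.54 with NAC + CY and 0.58 with CY but 0.22 with acrolein, so a smaller ratio could pass the Z-score with acrolein. Each member was read through its brightest detected probe, that is the one of highest mean signal over the 4 arrays among those with a P flag, and entered a comparison when that probe had a P flag on at least 1 of the 2 arrays.

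Of the 33 members, 22 had a P flag on at least 1 array and 11 on none. The detected members were 11 of 12 T cell genes, 5 of 12 NK cell genes and 6 of 9 B cell genes. By probe, 28 of the 59 member probes were detected somewhere, and the other 31 had mean signals of 2.73 to 9.52. The NK cell list was thus mostly unmeasured: Eomes and Tbx21 (the transcription factors of the lineage), Klrb1c (NK1.1), Klrd1 (CD94), Klrk1 (NKG2D), Ncr1 (NKp46) and Gzmb (granzyme B) were not well above background on any array. The same was true of Cd8a, the co-receptor of cytotoxic T cells, and of the B cell genes Cd79a, Blk and Fcrla. Nothing can be said about the direction of those 11 genes.

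The members that differed were low on both arrays with CY. On the NAC + CY array 8 members were called lower than on the NS array and none higher, of 19 that could be tested: Cd3d, Cd2 and Lck of T cells, Klra8, Nkg7 and Gzma of NK cells, and Cd79b and Ly6d of B cells. Among all 19808 genes tested in that comparison, 2.59% were called lower and 2.68% higher. On the CY array 6 members were called lower than on the NS array and none higher, of 20 tested: Cd3d, Lck, Klra8, Gzma, Cd79b and Ly6d. The background was 2.82% lower and 3.38% higher of 19721 genes. On the acrolein array none of the 22 tested members was called lower and 2, Lck and Gzma, were called higher, against 1.29% lower and 1.08% higher of 19700 genes. These 3 comparisons share the NS array. In whole tissue, fewer cells of a type and less RNA per cell cannot be told apart.

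These counts carry a condition that the filter sets. Of the 19 members tested in NAC + CY against NS, 11 had a P flag on the NS array alone and 8 on both arrays; of the 20 tested in CY against NS, 9 had it on NS alone, 10 on both and 1 on the CY array alone. A member detected only with NS had to have a lower signal with CY, so the counts and medians of the detected members are given as a description. With a P flag required on both arrays, 1 of 8 members was called lower with NAC + CY and 3 of 10 with CY, namely Lck with NAC + CY, and Cd2, Lck and Cd79b with CY. Under that filter 2.82% of 18138 genes were called lower with NAC + CY and 2.81% of 18143 with CY.

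**Figure D1:**
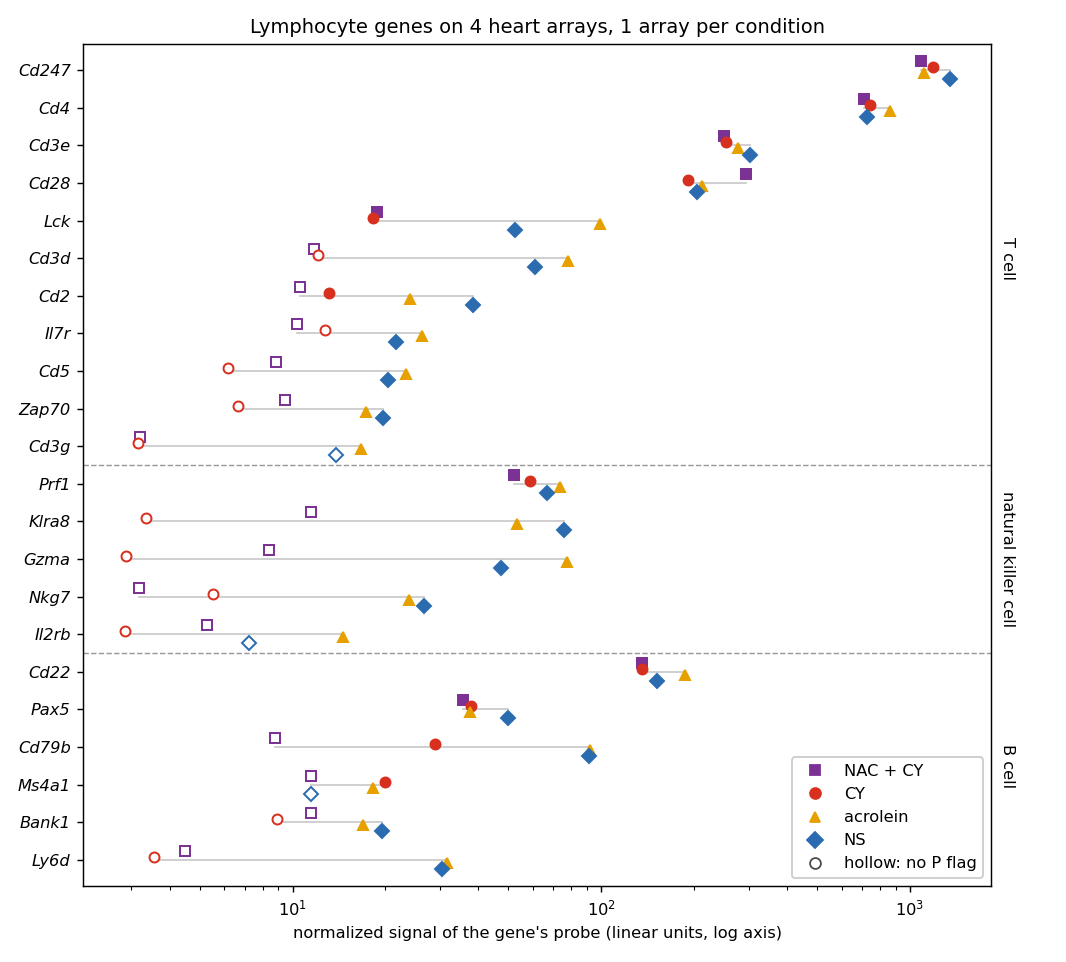
Normalized signal (log axis) of the representative probe of the 22 detected lymphocyte genes, grouped by cell type, on the NAC + CY (squares), CY (circles), acrolein (triangles) and NS (diamonds) arrays, 1 array each and so without error bars. Hollow markers have no P flag. Lck lay at 18.8 and 18.2 on the NAC + CY and CY arrays, against 99.1 with acrolein and 52.5 with NS, while Cd4 stayed between 712 and 859.

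The T cell receptor complex gave the clearest contrast within a single set of partner proteins. Cd3d, the CD3 delta chain, had a signal of 11.8 on the NAC + CY array and 12.1 on the CY array, both without a P flag, against 78.0 on the acrolein array and 61.1 on the NS array, both with one. The arrays with CY were thus both near the detection limit and the others both well above it. The log2 ratio to NS was −2.38 with NAC + CY and −2.34 with CY, both called lower, and 0.35 with acrolein, not called. Since Cd3d was undetected with CY, the difference is a bound: it was at least 4.89-fold lower with NAC + CY and at least 4.76-fold lower with CY. A second Cd3d probe, which spans 232 bases of the genome and so crosses an intron, showed the same order at 3.03 with NAC + CY and 3.02 with CY, neither detected, against 28.4 with acrolein and 26.3 with NS, and it was called lower in the same 2 comparisons.

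Cd3e, the CD3 epsilon chain, did not show this. Its brighter probe had 250 with NAC + CY, 253 with CY, 278 with acrolein and 303 with NS, detected on all 4 arrays, and log2 ratios of −0.27, −0.26 and −0.12 to NS for NAC + CY, CY and acrolein, none called. Its other probe, also detected on all arrays, read 25.1 with NAC + CY, 29.5 with CY, 36.0 with acrolein and 23.9 with NS, where the NS array was the lowest. The CD3 gamma chain Cd3g was seen on the acrolein array alone, at 16.7, and read 3.20 with NAC + CY, 3.16 with CY and 13.8 with NS, all below detection. Cd3d and Cd3g lie within 3000 bases of each other in the mouse genome.

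Cd247, the zeta chain that carries the receptor's signal, was among the flat members at 1088 with NAC + CY, 1188 with CY, 1109 with acrolein and 1348 with NS. Its log2 ratios to NS were −0.31, −0.18 and −0.28 for NAC + CY, CY and acrolein. Only this probe of the 4 Cd247 probes was detected, the others reading 2.90 to 17.9 without a P flag on any array, and RefSeq places Cd247 across part of Pou2f1, a widely expressed transcription factor gene.

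The probe parts below are a selection from the receptor complex and the other members, without Cd3g and the called Nkg7 and Ly6d. They set probes that differed beside the flat probes of Cd3e and Cd4. The flat probes of Cd247, Cd28, Prf1, Cd22 and Pax5 are not shown. The capitals mark AATAAA, the hexamer that precedes the cleavage site of many messenger RNAs and so marks the end of a transcript. Each is a stretch of 30 bases from the 60-base probe in the scanner files, 5′ to 3′ on the probe's own strand, with the probe's span in mm9.
Cd3d (lower with CY, chr9:44794452-44794511, plus strand): ctgtgatcaaccAATAAAgacgtttccttc
Cd3d, second probe (lower with CY, chr9:44794171-44794402, plus strand): gcagctgtatcagcctcttcgagatcgtga
Cd3e (flat, chr9:44806828-44806887, minus strand): taatgcaaaaggcAATAAAgtgtattggct
Cd4 (flat, chr6:124814711-124814770, minus strand): agctgacagaaaAATAAAggctataaataa
Lck (lower with CY, higher with acrolein, chr4:129225614-129225673, minus strand): tgcctagcacacaccaggagctcAATAAAa
Cd2 (lower with NAC + CY, chr3:101079831-101079890, minus strand): ttcgtcatttccAATAAAaagctgtgtgga
Klra8 (lower with CY, chr6:130065245-130065304, minus strand): tcccataaaactgAATAAAgagtcccccct
Gzma (lower with CY, higher with acrolein, chr13:113884035-113884094, minus strand): tgtctgatcacaAATAAAatcaacttgaat
Cd79b (lower with CY, chr11:106172780-106172839, minus strand): agagacttgttggaatctgcaaatggactc
AATAAA was found on the probe strand of 11 of the 59 member probes (18.6%), against 9.77% of all 56605 probes. It was in 8 of the 22 representative probes (36.4%) and 9 of the 28 detected member probes (32.1%). Of all probes with a P flag on at least 1 array, 11.4% held it. The 11 include 2 Cd2 probes that share 51 bases. The reverse complement TTTATT was in 5.08% of member probes and 3.85% of all. No other motif was searched. Of the 9 member probes detected on all arrays 4 held it, and of the 19 detected on 1 to 3 arrays 5 did. The GC content of both sets ran between 35.0% and 58.3% with a median of 45.0%.

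Among the co-receptors, Cd4, which marks helper T cells and also some myeloid cells, was flat at 712 with NAC + CY, 742 with CY, 859 with acrolein and 725 with NS. Its log2 ratios to NS were −0.03, 0.03 and 0.24 for NAC + CY, CY and acrolein. This is the signal of the probe that holds AATAAA, and a second Cd4 probe read 2.90 with NAC + CY and 5.98 with CY, both undetected, 15.3 with acrolein, detected, and 13.3 with NS, undetected, and the third was below detection on all arrays. The Cd4 probes therefore disagree in order, and Gpr162 lies within 3000 bases of Cd4 in RefSeq. Cd8a had signals of 2.81 to 5.41 over its 2 probes and 4 arrays, with no P flag.

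The kinases that take the receptor's signal onward differed. Lck was the called member with a P flag on every array: its signal was 18.8 with NAC + CY and 18.2 with CY, against 99.1 with acrolein and 52.5 with NS. The 4 arrays fell in the order of both CY arrays together at the bottom, NS between, and acrolein at the top. The log2 ratio to NS was −1.48 with NAC + CY (Z-score −2.04) and −1.53 with CY (Z-score −2.04), both called lower, and 0.92 with acrolein (Z-score 2.83), called higher. The scanner software's own error for these log2 ratios, which covers the spot and its background but no difference between mice, was 0.30, 0.31 and 0.23. The log2 ratio between the NAC + CY and CY arrays was 0.05. A second Lck probe stayed at 2.79 to 10.5 without a P flag. Zap70, which docks on the phosphorylated zeta chain, had 9.44 with NAC + CY and 6.67 with CY, both undetected, against 17.3 with acrolein and 19.6 with NS, both detected, and was not called in any comparison.

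Of the T cell surface receptors outside the complex, Cd2, an adhesion molecule also found on NK cells, had 10.6 with NAC + CY, undetected, and 13.1 with CY, against 23.9 with acrolein and 38.5 with NS. It was called lower with NAC + CY at a log2 ratio of −1.86, or at least 3.08-fold, while its ratios of −1.56 with CY and −0.69 with acrolein were not called. Its second probe, which shares a run of 51 bases with the first and is therefore not an independent reading, had 6.05 with NAC + CY, 18.8 with CY, 32.8 with acrolein and 33.7 with NS. Cd5, a brake on receptor signalling, read 8.81 with NAC + CY and 6.20 with CY, both undetected, against 23.3 with acrolein and 20.3 with NS. Il7r, the receptor chain for the survival cytokine interleukin-7, read 10.3 with NAC + CY and 12.8 with CY, both undetected, against 26.3 with acrolein and 21.7 with NS. Neither Cd5 nor Il7r was called in any comparison, and their bounds against NS lay at 1.58-fold to 1.73-fold. Cd28, the main co-stimulatory receptor, went its own way: 294 with NAC + CY was the highest value, beside 191 with CY, 212 with acrolein and 204 with NS, and its log2 ratios of 0.53 with NAC + CY to NS and 0.62 with NAC + CY to CY were not called. Its other probe was below detection on all arrays.

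In the NK cell list 4 of 12 members could be tested with NAC + CY and 4 with CY, of which 3 had a P flag on the NS array alone. Of the 4, 3 were called lower with NAC + CY and 2 with CY. Of all genes tested, 2.59% were called lower with NAC + CY and 2.82% with CY. Klra8, the activating lectin-like receptor Ly49H of mouse NK cells, had 11.4 with NAC + CY and 3.35 with CY, both undetected, against 53.2 with acrolein and 75.8 with NS, both detected. The ratios to NS on the log2 scale were −2.73 with NAC + CY and −4.50 with CY, both called lower, and −0.51 with acrolein. As bounds, Klra8 was at least 6.06-fold lower with NAC + CY and at least 5.91-fold lower with CY. A second probe read 2.70 with NAC + CY and 2.70 with CY, undetected, against 12.6 with acrolein and 18.1 with NS, detected, and the third, which shares 40 bases with the second, was undetected on all arrays. The Ly49 genes are near-identical copies of each other, so part of this signal can come from another member of the family.

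Gzma, the granule protease granzyme A, had 8.39 with NAC + CY and 2.90 with CY, both undetected, against 77.3 with acrolein and 47.4 with NS, both detected. It was called lower at log2 ratios to NS of −2.50 with NAC + CY (at least 3.79-fold) and −4.03 with CY (at least 3.70-fold), and higher at 0.70 with acrolein (Z-score 2.28). The order of the arrays was that of Lck, with acrolein on top. RefSeq places Gzma across part of Cdc20b, and Gzma has a single probe. Nkg7, another granule membrane protein, had 3.19 with NAC + CY and 5.53 with CY, undetected, against 23.8 with acrolein and 26.7 with NS, detected; it was called lower with NAC + CY at −3.06 and missed the call with CY at −2.27, where its Z-score was −1.96. Prf1, perforin, was detected on all arrays and was not called, with 52.1 for NAC + CY, 58.8 for CY, 73.8 for acrolein and 66.5 for NS. Its log2 ratios to NS were −0.35, −0.18 and 0.15 for NAC + CY, CY and acrolein. Il2rb, the receptor chain shared by interleukin-2 and interleukin-15, was detected with acrolein alone, at 14.6, and was at 5.29 with NAC + CY, 2.86 with CY and 7.22 with NS. The 2 granule proteins Gzma and Nkg7 and perforin thus did not move by like amounts, and the lineage's own defining genes Ncr1 (3.04 to 4.86), Eomes (2.84 to 7.02) and Klrb1c (2.74 to 3.75) were below detection throughout.

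**Figure D2:**
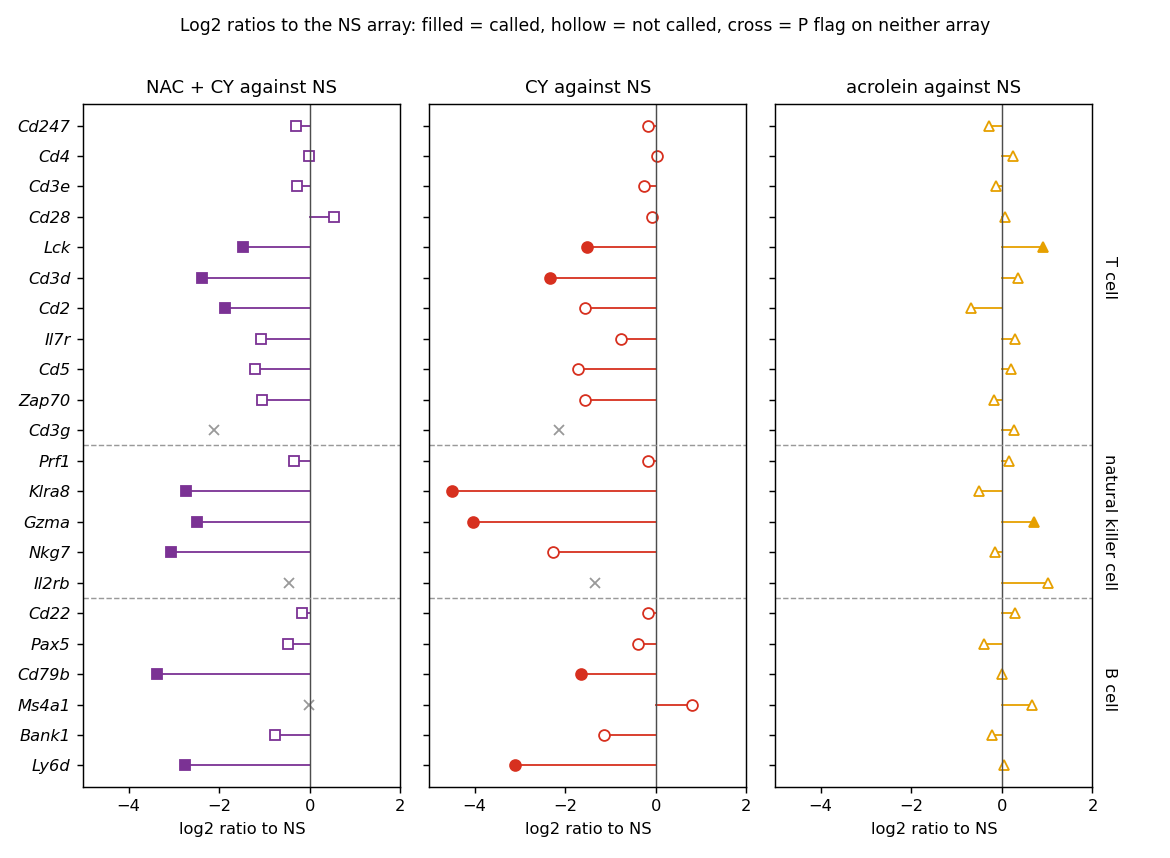
Log2 ratio to the NS array (x axis) of the 22 detected lymphocyte genes with NAC + CY, CY and acrolein; filled markers were called, hollow markers were not, and grey crosses had a P flag on neither array. The filled markers lie between −3.38 and −1.48 with NAC + CY and between −4.50 and −1.53 with CY, while with acrolein the only filled markers are Lck at 0.92 and Gzma at 0.70.

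In the B cell list, Cd79b separated the 2 arrays with CY. Its signal was 8.76 with NAC + CY, undetected, 29.0 with CY, 91.7 with acrolein and 91.3 with NS. The acrolein and NS arrays were nearly equal, the CY array was below them, and the NAC + CY array was below detection. The log2 ratio to NS was −3.38 with NAC + CY, or at least 7.30-fold lower, and −1.66 with CY, both called, and 0.01 with acrolein. Between the arrays with CY the log2 ratio of NAC + CY to CY was −1.73, at least 2.32-fold lower with NAC + CY. This was the single member called between NAC + CY and CY, of 11 tested, where 2.82% of 20083 genes were called lower and 1.54% higher.

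Ly6d, a surface protein first expressed when progenitors commit to the B lineage and also present in keratinocytes, had 4.49 with NAC + CY and 3.56 with CY, both undetected, against 31.7 with acrolein and 30.5 with NS, both detected. It was called lower at −2.76 with NAC + CY and −3.10 with CY, at least 2.44-fold and at least 2.38-fold, and had a log2 ratio of 0.05 with acrolein. Bank1, a B cell adaptor, read 11.5 with NAC + CY and 8.89 with CY, undetected, against 16.9 with acrolein and 19.5 with NS, and was not called. Ms4a1, which encodes CD20, was the detected B cell gene with its highest value on the CY array, at 19.9, beside 11.4 with NAC + CY, 18.2 with acrolein and 11.5 with NS, none of it called. Its second probe was detected on the acrolein array alone, at 16.5, and read 2.95 with NAC + CY, 2.93 with CY and 11.2 with NS. The Ms4a1 probes therefore disagree in order. By accession the second probe matched Ms4a1 in RefSeq, and the brighter probe had no match.

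Cd22 and Pax5 were flat. Cd22, an inhibitory co-receptor of B cells, had 136 with NAC + CY, 135 with CY, 186 with acrolein and 152 with NS, and its other 3 probes were below detection on every array. Pax5, the transcription factor that maintains B cell identity, had 35.7 with NAC + CY, 37.8 with CY, 37.7 with acrolein and 49.8 with NS, with log2 ratios to NS of −0.48, −0.40 and −0.40 for NAC + CY, CY and acrolein. Pax5's second probe was below detection on all arrays, and Cd79a, the partner of Cd79b, read 2.76 to 2.97.

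Set in order, both arrays with CY lay below both the acrolein and the NS array for 17 of the 22 detected members, 8 of 11 T cell genes, 5 of 5 NK cell genes and 4 of 6 B cell genes, and above both for none. Among all 20738 detected genes, 31.9% lay below in that way and 27.9% above. The members whose arrays overlapped were Cd247, Cd4, Cd28, Pax5 and Ms4a1. The median gap between the means of the 2 pairs of arrays was −1.29 on the log2 scale for the 22 members and −0.02 for all genes. Here too a member detected on both the acrolein and NS arrays, and on neither array with CY, could in practice only lie below. Cd3g and Il2rb were detected on the acrolein array alone, so their order against NS rests on undetected signals.

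The gap went with brightness, but this relation is partly built in. Mean signal and P flags include the arrays with CY, so a low signal there lowers them too. The 9 member probes detected on all 4 arrays had a median log2 gap of −0.20, and the 19 detected on 1 to 3 arrays had one of −2.21. The detection limit itself defines the second set. Among the 8 genes whose representative probe was detected on all arrays, 7 had gaps from −0.34 (Prf1) to 0.19 (Cd28), and Lck had −1.96. At like mean signals the gaps also differed, with −2.52 for Cd79b at a mean signal of 38.2 and −0.24 for Pax5 at 39.9. They differed as well at like signals on the NS array alone, with −3.36 for Klra8 at 75.8 and −0.34 for Prf1 at 66.5. Probes that share a gene differed by brightness as well, as for Cd4, Cd247 and Cd22, and which of a gene's probes reads the transcript of lymphocytes was not tested.

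**Figure D3:**
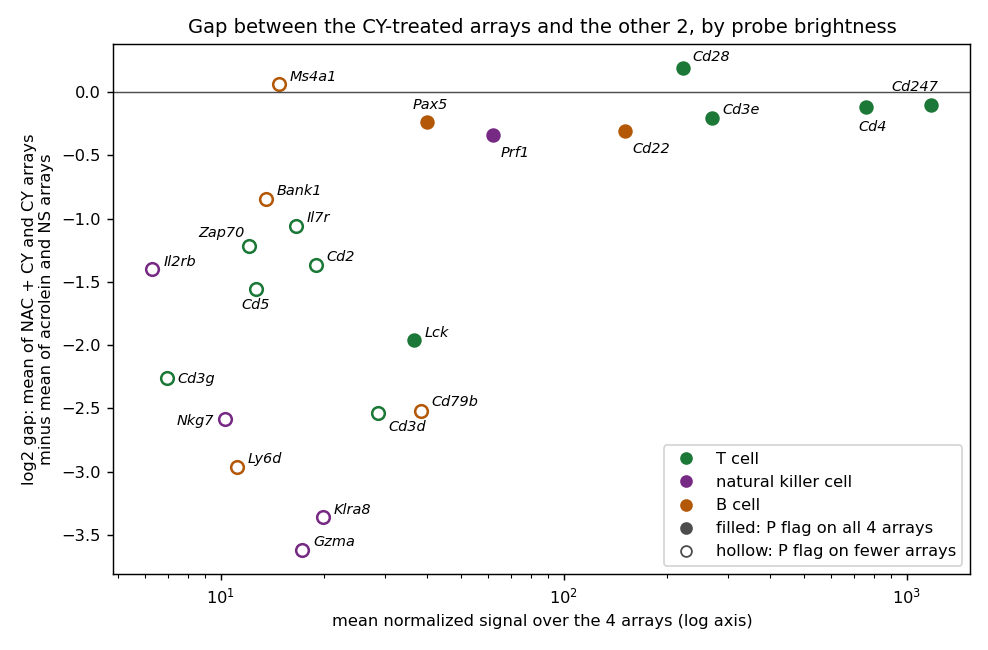
Mean signal of each detected member over the 4 arrays (x axis, log) and the log2 gap between the mean of the NAC + CY and CY arrays and the mean of the acrolein and NS arrays (y axis), coloured by cell type, with filled points detected on all 4 arrays. Gzma lies lowest at −3.62 and Klra8 next at −3.36, while the bright members Cd247, Cd4, Cd3e and Cd28 lie between −0.20 and 0.19.

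The other lymphocyte genes were counted in the same way. Of 78 further T, NK and B cell genes on the array 43 were detected, and 7 of 38 tested were called lower with NAC + CY and 9 of 39 with CY, with none higher in either. Of all genes tested, 2.59% were called lower and 2.68% higher with NAC + CY, and 2.82% and 3.38% with CY. Ratios above NS were found for 8 of the 38 with NAC + CY and 9 of the 39 with CY, none called, such as S1pr1, a receptor for lymphocyte egress chosen after its values were seen, at 0.50 and 0.48. A further 8 with NAC + CY and 9 with CY had a P flag on the NS array alone and could only be lower. The median log2 ratio of those tested was −0.62 with NAC + CY and −0.49 with CY, against −0.01 and −0.02 over all genes, and 0.05 with acrolein, against 0.01.

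Of the other T cell genes, Ccr7, the homing receptor for lymph nodes, had 19.4 with NAC + CY and 5.59 with CY, against 46.2 with NS, and was called lower in both, at −1.26 and −3.05. Ets1, a transcription factor of T cells that endothelium also expresses, had 126 with NAC + CY and 124 with CY, against 364 with NS, and was called lower in both at −1.53 and −1.55. Thy1, named here after its values were seen, was the other call with NAC + CY, at 670 against 1237 with NS. Of the 7 other NK cell genes tested, 2 were called lower in both: Klra9, a Ly49 receptor, and Ccl5, a chemokine of NK cells and activated T cells. None of the rest was called. Ratios above NS were found for 2 of the 7, named after their values were seen. Klra1, another Ly49 gene, had 0.29 with NAC + CY and 0.02 with CY, and S1pr5 had 0.28 and 0.15. Ccl5 had 13.8 with NAC + CY and 24.4 with CY, against 97.6 with NS, all detected, and so its log2 ratio of −2.83 with NAC + CY is not a bound. Of the other B cell genes, Fcmr, the IgM receptor, and Ciita, the master regulator of MHC class II genes, were called lower in both, with Fcmr at 4.52 with NAC + CY and 3.11 with CY, against 34.0 with NS. Cd72, a surface receptor that restrains B cell signalling, was called lower with CY at −1.43, and so was Blnk, named after its values were seen, at −1.21.

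Chemokines that draw lymphocytes in did not move together. The shares of all genes called lower and higher were 2.59% and 2.68% with NAC + CY, 2.82% and 3.38% with CY, and 1.29% and 1.08% with acrolein. Of the ligand list 2 of 15 genes were called lower with NAC + CY, 2 lower and 1 higher of 15 with CY, and 2 of 16 higher with acrolein, and of the genes of lymph node stroma 1 of 4 was higher and 1 lower with NAC + CY, 2 of 5 higher and 1 lower with CY, and none of 4 called with acrolein. Cxcl9, an attractant of activated T cells, was called lower in both, with 33.2 with NAC + CY and 19.4 with CY, against 105 with NS. Ccl21a, made by lymphatic vessels, was called lower in both, with 391 with NAC + CY and 342 with CY, against 1487 with NS. Ccl19, which binds the same receptor Ccr7, was called higher in both, with 245 with NAC + CY and 356 with CY, against 74.9 with NS. Cxcl13, the B cell attractant, was called higher with CY alone, where it had 128, against 3.99 with NS and 11.8 with NAC + CY, a bound of at least 7.76-fold to NS. Cxcl12, which holds lymphocytes in bone marrow, was called lower in both, with 3943 with NAC + CY and 2496 with CY, against 7615 with NS. Cxcl10, an attractant that shares its receptor with Cxcl9, was called higher with CY, at 39.3, and with acrolein, at 58.7, against 12.8 with NS, where it was undetected, and at 41.8 with NAC + CY its Z-score of 1.96 missed the call.

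On the acrolein array Lck and Gzma were called higher, and the other 20 tested members were not called in either direction. The other T cell genes that were called with acrolein were Lat, the adaptor that Zap70 phosphorylates, at 34.3 against 14.0 with NS (at least 2.08-fold higher), Cd8b1, named after its values were seen, at 120 against 73.4 with NS (0.71), and Bcl11b, lower at 14.6 against 29.7 with NS. Of the 20 other T cell genes tested with acrolein, 10 had ratios above NS and 10 below. A marker of immature T cells, Dntt, the template-independent polymerase of thymocytes, was called higher with acrolein. It had 79.6 with acrolein, against 27.5 with NS, a log2 ratio of 1.53, while it was undetected with NAC + CY at 6.53 and with CY at 9.91. Of the 6 thymocyte genes 2 were detected, Dntt and Arpp21, and the defining genes Rag1, Rag2 and Ptcra had no P flag on any array. Arpp21 did not follow Dntt: it was called higher with CY, at 137 against 53.3 with NS, and was not called with NAC + CY at 89.3 or with acrolein at 66.1. The part of such cells in the Lck value was not tested.

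Markers of other blood cells also differed between the arrays. Their counts stand beside shares of all genes called lower and higher of 2.59% and 2.68% with NAC + CY. With CY these shares were 2.82% and 3.38%, and with acrolein 1.29% and 1.08%. Erythroid genes were called lower with NAC + CY in 5 of 6 tested, with a summed signal of 82643 on that array, 194470 with CY, 153094 with acrolein and 200511 with NS, and 1 of 6 was called lower with CY. Most of the sum with CY came from Hba-a1, at 171097, and the erythroid gene called lower with CY was Slc4a1, at −2.67. Neutrophil genes were called higher on all 3 treated arrays: 6 of 8 tested were called higher with NAC + CY, 2 of 8 with CY and 4 of 7 with acrolein, with S100a8 at 714, 221 and 435 on those arrays against 56.2 with NS. Platelet genes were called higher in 6 of 8 with CY, in none of 5 with NAC + CY and in none of 5 with acrolein, with Gp9 at 12.8 with NAC + CY, 459 with CY, 16.3 with acrolein and 21.5 with NS. Of the pan-leukocyte genes, 2 of 14 were called lower with NAC + CY, Coro1a and Cd52, none of 14 with CY, and 1 of 15, Rac2, higher with acrolein. Keratin genes were called higher with CY in 4 of 4 and lower with acrolein in 4 of 5. Macrophage and monocyte genes were called lower in 3 of 16 with NAC + CY and in 1 of 16 with CY, with 1 higher there and none either way with acrolein. Cx3cr1, a chemokine receptor that monocytes share with NK cells, had 21.6 with NAC + CY and 28.2 with CY, against 417 with NS, and was called lower in both. Of 7 mast cell genes 3 were called lower and 1 higher with NAC + CY, 1 each way with CY, and 1 lower with acrolein. Of 10 cardiomyocyte genes 2, Ryr2 and Actc1, were called lower with NAC + CY and with CY and none with acrolein. No dendritic cell gene of 5 tested and no proliferation gene of 5 or 6 tested was called in any comparison with NS. The part of blood content or of other tissue in the members' values was not tested.

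**Figure D4:**
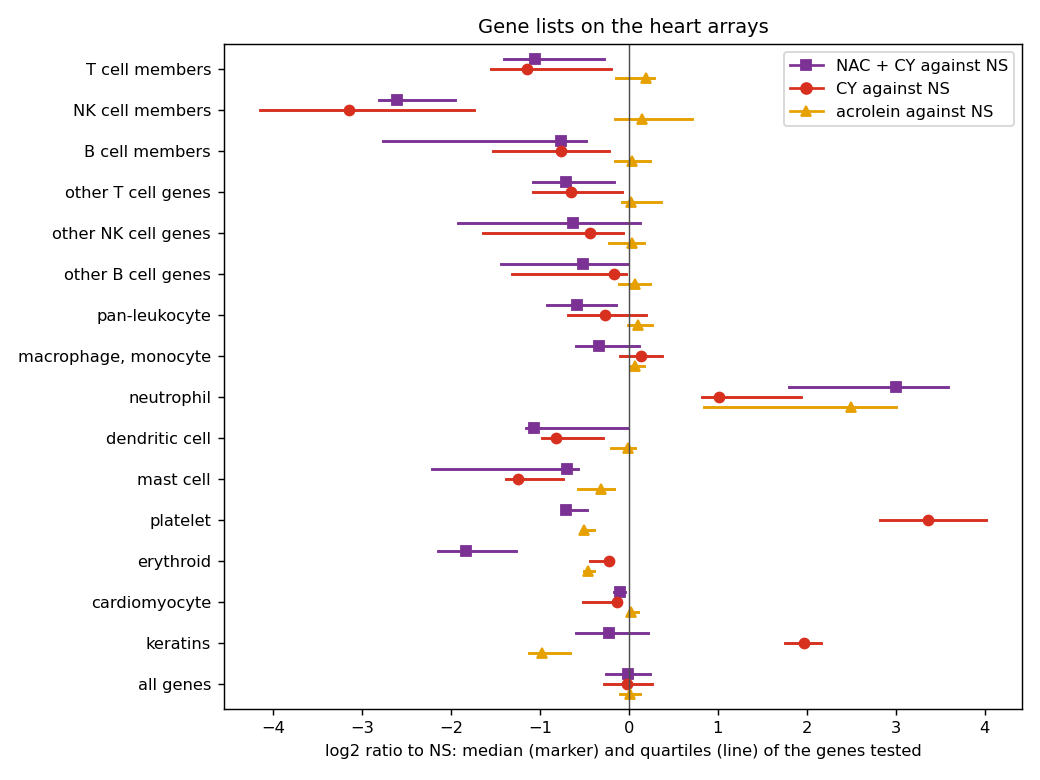
Median (marker) and quartiles (line) of the log2 ratio to NS of the tested genes of each list, with NAC + CY, CY and acrolein, 1 array per condition. T, NK and B cell members had medians of −1.06, −2.61 and −0.77 with NAC + CY, −1.15, −3.15 and −0.77 with CY, and 0.19, 0.15 and 0.03 with acrolein, and neutrophil genes had 3.00, 1.02 and 2.50 in the same 3 comparisons, while all genes lay at −0.01, −0.02 and 0.01.

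The NAC + CY and CY arrays were also compared directly. Of the 11 members tested between them none was called higher with NAC + CY, and Cd79b was called lower. The median log2 ratio of NAC + CY to CY was −0.04 over 6 T cell genes and −0.44 over 4 B cell genes, −0.17 for the single NK cell gene tested (Prf1), and 0.02 over all genes. Whether this holds across mice cannot be told from 1 array per condition.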

How the data were processed

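The authors hybridised Cy3-labelled cRNA of heart RNA to SurePrint G3 Mouse arrays and extracted spots with Agilent Feature Extraction, version 9.5.1.1 per the submitters' notes and 10.7.1.1 per the file headers. The deposited intensity values are background-subtracted signals, not normalized. The deposited value table holds linear signal values of the same arrays with equal medians of 13.9, and its log2 values correlated at 0.999998 or more with those used here. After removal of control spots, 59305 spots were put on the log2 scale and brought to a common distribution by quantile normalization, and unflagged spots were averaged into 56605 probes. Probe positions are those of the files (mm9). Of the 59 member probes, 49 matched the same symbol by accession in RefSeq (GRCm38.p6), none another, and 10 had no match. Bounds set the undetected array at its lowest signal well above background. All 33 members are named, with up to 4 genes of each of 16 other lists by largest absolute log2 ratio, and Ptprc, Myh6, Actb and Gapdh. The members and lists were chosen with earlier results of these data known. The calling code was tested on simulated data with known fold changes. The changed probes all had a P flag on NS, and the noise was below that of the comparisons with CY. How well dim members are called was therefore not tested. Results were recomputed under 14 other settings of the scaling, background correction, floor, P-flag filter, window, criteria and choice of probe, and under 1 added after the data were seen. All 4 arrays lie on 1 slide, so the number of arrays limits the precision. Python 3.11.15, numpy 2.4.6, pandas 2.3.3, scipy 1.17.1, matplotlib 3.10.9, R 4.3.3 and limma 3.58.1 were used.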

Additional observations from a re-analysis of the deposited data

Results flagged for a closer look

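Lck was called in opposite directions by the arrays with CY and by acrolein, all against the same NS array. Its log2 ratio to NS was −1.48 with NAC + CY and −1.53 with CY, against 0.92 with acrolein. Gzma showed the same, at −2.50 with NAC + CY and −4.03 with CY, against 0.70 with acrolein. Neither difference between the treatments was tested, since each rests on 1 array, and the ratios with CY of Gzma rest on signals below detection. The calls with acrolein were lost under 3 of 14 alternatives, as given below for the criteria and the background correction.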

How the results depend on the processing

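No paired analysis was possible because each condition has 1 array. Counts of members called changed as follows. With a P flag required on both arrays, 1 of 8 was called lower with NAC + CY against NS, 3 of 10 with CY against NS and 0 of 8 in NAC + CY against CY. In the other settings below, 19 members were tested with NAC + CY, 20 with CY, 22 with acrolein and 11 in NAC + CY against CY. With a Z-score of 3 the numbers lower were 3 with NAC + CY, 3 with CY and 0 in NAC + CY against CY, and 0 were higher with acrolein. With normexp background correction 5 were lower with NAC + CY and 0 in NAC + CY against CY, and 0 were higher with acrolein. With the ratio alone 12 were lower with NAC + CY, 12 were lower and 1 higher with CY, 4 higher and 1 lower with acrolein, and 2 lower and 1 higher in NAC + CY against CY. A ratio of 2 left 0 higher with acrolein, and a floor at the lowest signal well above background left 0 lower in NAC + CY against CY. The share of all genes called moved as well: lower with CY it was 10.74% with the ratio alone and 0.766% with a Z-score of 3, against 2.82%, lower with NAC + CY it was 9.67% and 0.798%, against 2.59%, and higher with acrolein it was 3.97% and 0.452%, against 1.08%. With normexp background correction it was 2.23% lower with NAC + CY, 2.25% lower in NAC + CY against CY, and 0.239% higher with acrolein. With the ratio alone it was also 11.71% higher with CY, 2.87% lower with acrolein, and 7.86% lower and 5.82% higher in NAC + CY against CY. In that last comparison it was 1.35% lower with a Z-score of 3, 2.81% with the floor and 3.20% with both P flags. A ratio of 2 gave 0.447% higher with acrolein. In each case the cause was not tested. Over all members and settings, 972 values kept their side of the criteria, 27 lost a call and 21 gained one. Of the 240 values of members called against their control, 0 turned sign, and of the 780 values of members not called 12 did, none of them called. Many called members were undetected on 1 of the 2 arrays, so their sign could hardly turn. The count of 0 is therefore no measure of stability.

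Cd3d and Klra8 with NAC + CY and with CY, Cd79b with NAC + CY and Gzma with CY were called lower in each of the 14 other settings in which they were tested, the added one included. With a P flag required on both arrays none of these was tested. With the acrolein array in place of NS, chosen after seeing the data, 6 members were called lower with NAC + CY and 4 with CY, and the calls of Cd2 and Nkg7 with NAC + CY and of Cd79b and Ly6d with CY were lost. Against that array 2.49% of 20299 genes were called lower with NAC + CY and 2.67% of 20264 with CY. Below the detection limit a signal gives only a bound, which limits Cd3d, Klra8, Gzma, Nkg7, Ly6d and, with NAC + CY, Cd2 and Cd79b.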
